A study of Mus musculus with 6 samples.

Results

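Matricellular proteins are secreted into the extracellular matrix, where they act mainly as signals between matrix, growth factors and cells and only little as structural scaffold. They bind integrins, syndecans and other surface receptors, and several of them store, release or modify growth factors such as TGF-beta. In carcinomas and in healing tissue they are known as markers of a remodelled stroma, and many of their genes are targets of TGF-beta signalling or of the YAP and TAZ co-activators. The 10 genes described here were chosen by name from this group: the CCN genes Ctgf, Cyr61, Wisp1 and Wisp2 (Ccn2, Ccn1, Ccn4 and Ccn5 in the current nomenclature), the thrombospondins Thbs1 and Thbs2, the tenascin Tnc, the osteonectin gene Sparc, and Postn and Tgfbi, which encode the fasciclin domain proteins periostin and TGF-beta induced protein. All 10 of the 36163 gene names on the array were found, with 13 probes, and all 10 passed the filter that left 24737 genes for testing.

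The cells were N18-Fms, a mouse prostate cancer cell line that carries a retroviral murine c-fms, the gene of the CSF-1 receptor, and was sorted for the receptor at its surface. N18 is a single neomycin-resistant, luciferase-expressing clone of C2H, an epithelial clone from a tumour of the TRAMP model. All cultures, the controls included, grew in serum-containing medium with dihydrotestosterone and carried the receptor. The 3 groups were unstimulated cells given vehicle (Control), cells given recombinant murine CSF-1 at 100 ng/mL for 24 h (24H CSF1) and cells given the same dose for 48 h (48H CSF1), each with RNA from 2 independent experiments. The labels give 24 and 48 h, and these times are used throughout. The results of the study and its figure legend give the same times as the labels. Its methods describe shorter stimulation times, and the files do not settle which are right. Cells without the receptor were not analysed here, so an effect of CSF-1 on cells lacking c-fms cannot be compared. Expression was measured on 6 single-colour Agilent arrays. The level of a transcript is given as log2 of its processed signal minus log2 of the 75th percentile of the array, so that 0 is the 75th percentile and 1 unit is a 2-fold difference. A level can be compared between arrays but not between probes.

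Between 58.7% and 72.0% of the spots of an array were well above background, no spot was saturated, and replicate arrays correlated with r of 0.9925 to 0.9936 across the genes tested. The 24 h replicate 1 array lay on another slide and was scanned on another day than the other 5. The epithelial label was checked with 8 marker genes. The keratin gene Krt8 and the claudin genes Cldn4 and Cldn7 were well above background on all 6 arrays, at unstimulated means of only -2.71, -3.09 and -0.64. Krt18 was above background on neither unstimulated array (mean -5.04), and the unstimulated mean of Krt19 was -3.94. The log2 of the summed levels of the 8 genes was 1.27 and 1.45 in unstimulated cells, 1.30 and 1.31 at 24 h, and 1.68 and 1.71 at 48 h. Because levels cannot be compared between probes, such sums compare arrays, not lists of genes, and a share of a sum is a share of signal only. Cdh1, which encodes E-cadherin, was above background on none of the 6 arrays, and Epcam on 1 of them. Of 8 genes usual for fibroblasts, 7 were well above background in every group, and Lum on no array. The log2 of the summed levels of the fibroblast genes was 8.38 and 8.37 in unstimulated cells, 7.23 and 7.13 at 24 h, and 7.40 and 6.98 at 48 h. The macrophage and endothelial genes below were summed in the same way. Most of this sum is signal of the collagen genes Col1a1, Col1a2 and Col3a1, and not all of the list was lower with CSF-1: the means of the Control, 24H CSF1 and 48H CSF1 groups were -2.88, -0.80 and -0.11 for Dcn, -3.0, -1.68 and -2.38 for Pdgfra, -4.10, -3.48 and -3.68 for Thy1, and 1.54, -0.37 and 0.41 for Pdgfrb. The part of these cells' genes in the matricellular changes was not tested. The macrophage genes summed to 5.48 and 5.32 in unstimulated cells, 5.33 and 5.05 at 24 h, and 5.16 and 4.72 at 48 h, with 5 of 9 above background on both unstimulated arrays, 6 at 24 h and 5 at 48 h, and Lyz2 above background on none. Most of this sum is Itgam, at group means of 5.31, 4.88 and 4.66, while the means of Mrc1 were -2.79, 1.49 and 0.77 and those of Cd14 1.03, 1.89 and 1.72. The endothelial genes summed to between 4.23 and 4.67 in all groups, with 3 of 5 above background on both unstimulated arrays and 5 of 5 at either time. Kdr makes up most of that sum, with means of 4.42, 4.39 and 4.24, and the means of Cdh5 were -4.29, -0.42 and -0.33.

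Promoter sequences from RefSeq (GRCm38.p6) were matched for 6 of the 10 genes. The 250 bases before the most upstream start site are shown for the genes on which the results turn: Cyr61, which fell, Tnc, which rose, Postn, which differed between 24 and 48 h, and Tgfbi, whose 48 h replicates disagreed. Capitals mark matches to a motif searched on both strands. The windows lie at chr3:145649986-145650235 (minus strand) for Cyr61, chr4:64047016-64047265 (minus strand) for Tnc, chr3:54359017-54359266 (plus strand) for Postn and chr13:56609336-56609585 (plus strand) for Tgfbi.
Cyr61: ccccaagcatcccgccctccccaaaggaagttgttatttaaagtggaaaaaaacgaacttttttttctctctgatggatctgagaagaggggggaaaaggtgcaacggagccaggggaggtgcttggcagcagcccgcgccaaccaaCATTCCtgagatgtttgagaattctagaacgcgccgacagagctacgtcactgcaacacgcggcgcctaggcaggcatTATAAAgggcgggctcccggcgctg
Tnc: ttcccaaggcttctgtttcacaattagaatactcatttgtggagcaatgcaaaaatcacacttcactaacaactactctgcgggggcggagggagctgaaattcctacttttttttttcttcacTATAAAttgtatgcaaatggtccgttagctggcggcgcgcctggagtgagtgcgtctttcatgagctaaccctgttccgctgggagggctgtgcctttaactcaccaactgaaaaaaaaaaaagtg
Postn: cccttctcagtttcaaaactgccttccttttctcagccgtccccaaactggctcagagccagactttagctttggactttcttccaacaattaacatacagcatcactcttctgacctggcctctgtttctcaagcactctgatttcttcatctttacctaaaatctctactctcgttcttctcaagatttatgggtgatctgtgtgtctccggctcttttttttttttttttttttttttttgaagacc
Tgfbi: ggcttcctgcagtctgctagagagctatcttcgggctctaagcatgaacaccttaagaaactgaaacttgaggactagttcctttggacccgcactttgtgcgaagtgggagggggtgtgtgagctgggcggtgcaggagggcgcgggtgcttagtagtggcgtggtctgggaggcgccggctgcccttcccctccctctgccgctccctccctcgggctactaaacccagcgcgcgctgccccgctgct

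The Cyr61 window held the TATA box letters TATAAA at bases -25 to -20 from the start site. It also held the TEAD letters GGAATG on the opposite strand, at -103 to -98. TEAD proteins are the DNA-binding partners of YAP and TAZ. The Tnc window held TATAAA at -126 to -121 from its most upstream start site. No match was found in the Postn and Tgfbi windows, nor in that of Sparc, while the Thbs2 window, the sixth, held TATAAA on the opposite strand at -126 to -121. Over 32851 windows of the same length, 12.6% held the TEAD letters and 12.4% held TATAAA. The AP-1 letters TGANTCA (6.75% of windows), the STAT letters TTCNNNGAA (7.02%) and the CArG box of SRF (1.47%) were in none of the 6 windows. None of these motifs overlapped another in the windows shown, and a match or its absence describes the letters in the window only.

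At 24 h of CSF-1, 7 of the 10 genes (7.66% of all genes tested) passed the study's thresholds against unstimulated cells, an unadjusted p under 0.05 and a change of at least 2-fold in limma's moderated test over all 6 arrays. Tnc rose, against 5.84% of all genes tested that rose, and Thbs1, Ctgf, Wisp1, Wisp2, Cyr61 and Sparc fell, against 1.82% of all genes tested that fell. At 48 h, again 7 passed (6.46% of all genes tested): Tnc and Tgfbi rose (4.64% of all genes tested), and Postn, Cyr61, Ctgf, Wisp1 and Wisp2 fell (1.82%). At a Benjamini-Hochberg adjusted p under 0.05 over all genes tested, with no fold threshold, 1 gene rose and 4 fell at 24 h (7.95% and 5.90% of all genes tested, 13.8% together), and 2 rose and 5 fell at 48 h (6.53% and 7.33%, 13.9% together). These were Tnc up and Thbs1, Sparc, Wisp1 and Wisp2 down at 24 h. At 48 h they were Tnc and Thbs2 up and Postn, Sparc, Ctgf, Cyr61 and Wisp1 down. Thbs2 had 1 usable 48 h array, and Tgfbi and Wisp2 did not pass at 48 h. At the study's thresholds, Tnc was the 1 gene called higher at both times (3.40% of all genes tested). Ctgf, Cyr61, Wisp1 and Wisp2 were the 4 called lower at both (1.08%), although Wisp2 was not well above background on 3 of its 4 stimulated arrays. Wisp2 passed the filter only through the unstimulated group and Tgfbi only through the stimulated groups, each where it was brighter. The arrays of the groups did not overlap for 2 genes that were higher and 7 that were lower at 24 h, beside 31.3% and 27.7% of all genes tested, nor for 3 and 7 at 48 h, beside 23.9% and 34.9%. The median log2 fold change of the 10 genes was -1.17 at 24 h and -1.06 at 48 h, beside 0.04 and -0.04 over all genes tested. Both comparisons use the same 2 unstimulated arrays, for which the labels give no time. Neither time has unstimulated cells of its own, so time in culture and duration of CSF-1 cannot be told apart. Without 24 h replicate 1, the array on the separate slide, fewer of the 10 genes were called lower at 24 h, and so too without either unstimulated array. Over all genes tested, those called lower were not fewer in these fits. Leaving out an array of either group compared leaves 1 array in that group. The adjusted calls then dropped among the 10 genes and also over all genes tested, so the drop is not particular to these genes.

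**Figure D1:**
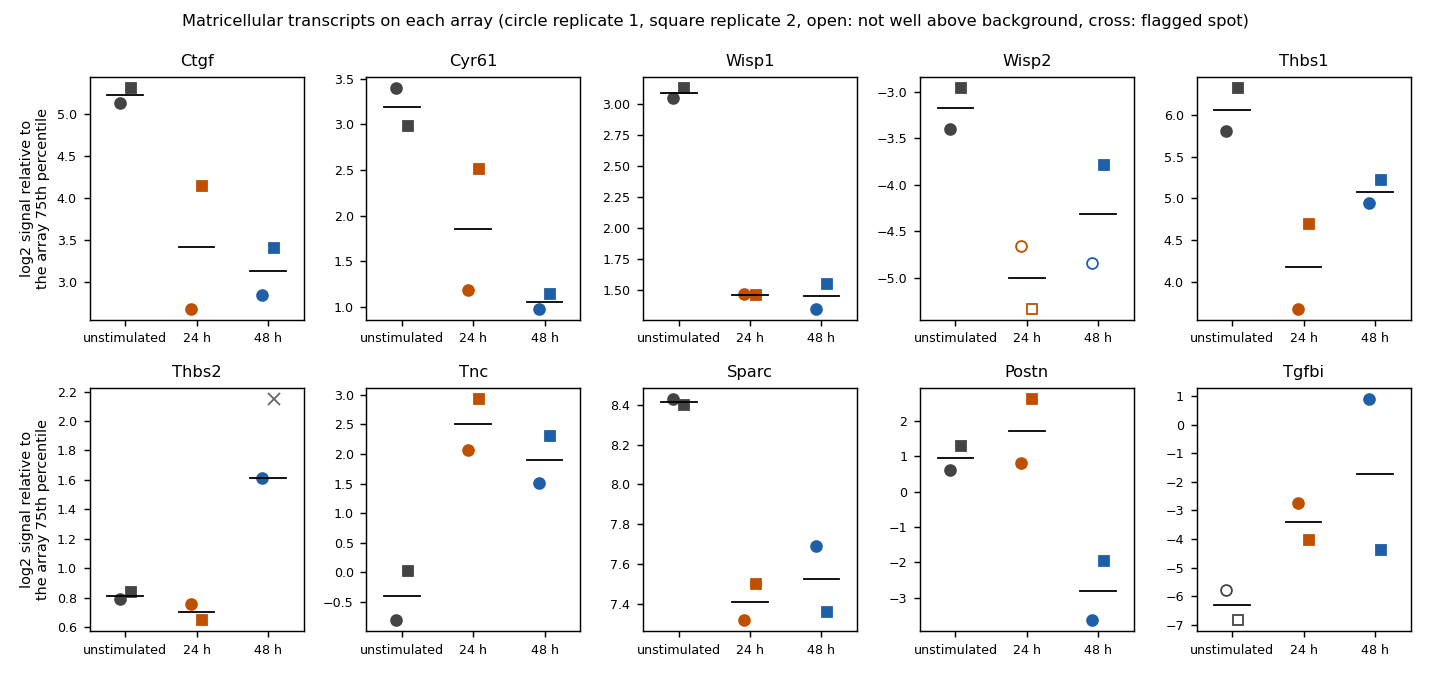
Level of each of the 10 genes on the 6 arrays, as log2 signal relative to the 75th percentile of the array (y axis, with its own range in each panel), in unstimulated cells and after 24 or 48 h of CSF-1 (x axis). Circles are replicate 1, squares replicate 2 and lines the mean of the usable arrays, open symbols were not well above background, and the cross is the flagged Thbs2 spot, which was not used. Ctgf, Cyr61, Wisp1, Wisp2, Thbs1 and Sparc lie lower at both times than in unstimulated cells, Tnc lies higher, Postn is low at 48 h only, and the 48 h symbols of Tgfbi are far apart at 0.90 and -4.37.

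The CCN genes encode a family of small modular proteins that bind integrins and growth factors. Ctgf, connective tissue growth factor, is a widely used reporter of both TGF-beta and YAP activity. Its level was 5.13 and 5.31 in unstimulated cells, 2.68 and 4.14 at 24 h, and 2.85 and 3.40 at 48 h. Both arrays of either time lay below both unstimulated arrays, and the 24 h replicates were far apart. In these bulk samples, fewer cells expressing a transcript and less of it per cell cannot be told apart. Ctgf changed by -1.81 on the log2 scale at 24 h (SE 0.49, limma adjusted p = 0.0679) and by -2.10 at 48 h (SE 0.49, adjusted p = 0.0486), which is 3.51-fold and 4.28-fold lower. The 24 h call was lost without unstimulated replicate 2 (-1.73, unadjusted p = 0.0576 in the limma fit), and the 24 h change was smaller without 24 h replicate 1 (-1.08) than without 24 h replicate 2 (-2.54).

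Cyr61, an immediate early gene whose product supports adhesion and angiogenesis, is the CCN gene whose promoter window is shown above. It was measured at 3.40 and 2.98 in unstimulated cells, 1.19 and 2.51 at 24 h, and 0.98 and 1.14 at 48 h. The groups did not overlap, the lower 24 h array being close to the 48 h pair and the higher one close to the unstimulated pair. Cyr61 changed by -1.33 at 24 h (SE 0.44, unadjusted p = 0.0256, limma adjusted p = 0.106) and by -2.13 at 48 h (SE 0.44, adjusted p = 0.0360), or 2.52-fold and 4.36-fold lower. The 24 h call was lost without unstimulated replicate 1 (-1.12), unstimulated replicate 2 (-1.54) or 24 h replicate 1 (-0.67), and the 24 h change was -1.99 without 24 h replicate 2. The 48 h change passed the thresholds without each array in turn, between -2.34 and -1.92.

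Wisp1, first described as a gene induced by Wnt1, is read by 2 probes. Its brighter probe gave 3.05 and 3.13 in unstimulated cells, 1.47 and 1.46 at 24 h, and 1.35 and 1.55 at 48 h. Both times lay well below the unstimulated pair and overlapped each other. The log2 fold change was -1.63 at 24 h (SE 0.12, limma adjusted p = 0.00313) and -1.64 at 48 h (SE 0.12, adjusted p = 0.00256). It was the only one of the 10 genes whose adjusted p stayed under 0.05 at both times without each array in turn. A second Wisp1 probe gave 1.59 and 1.66, then 0.09 and 0.15, then -0.05 and 0.22, with changes of -1.51 and -1.54.

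Wisp2, a CCN protein without the C-terminal cystine knot of the others, was dim. Its level was -3.40 and -2.96 in unstimulated cells, -4.66 and -5.33 at 24 h, and -4.84 and -3.79 at 48 h. Neither 24 h array was well above background, and of the 48 h arrays only replicate 2 was. Since the 24 h group has only a bound, Wisp2 was at least 2.29-fold lower at 24 h. The bound takes for each dim array the higher of its lowest signal well above background and the spot itself. The limma adjusted p of 0.0464 belongs to the fitted change of -1.82, which takes in values below background. At 48 h the log2 fold change was -1.13 (SE 0.42, unadjusted p = 0.0382, adjusted p = 0.138). That call was lost without unstimulated replicate 1 (-1.35), unstimulated replicate 2 (-0.92) or 48 h replicate 1 (-0.61). Under normexp background correction the calls at 24 and 48 h were both lost, with changes as small as -0.59 at 24 h and -0.42 at 48 h, short of 2-fold. The 24 h bound is that of the main setting. The bound at 24 h was between 1.97-fold, without unstimulated replicate 2, and 2.66-fold with single arrays left out. The level on 48 h replicate 1 is itself below the lowest signal well above background on that array, and with such dim spots raised to that signal, a setting added after the values were seen, the 48 h change was -0.85 (limma unadjusted p = 0.0110), under 2-fold.

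Thbs1 encodes thrombospondin-1, an inhibitor of angiogenesis and an activator of latent TGF-beta. Its level was 5.80 and 6.32 in unstimulated cells, 3.68 and 4.69 at 24 h, and 4.94 and 5.22 at 48 h. All 4 stimulated arrays lay below both unstimulated arrays, and the 48 h pair lay above the 24 h pair. Thbs1 fell by 1.87 at 24 h (SE 0.37, limma adjusted p = 0.0328), which is 3.67-fold lower. At 48 h its difference from unstimulated cells was -0.98 (unadjusted p = 0.0423, adjusted p = 0.147), or 1.97-fold, just short of the fold threshold. Between 24 and 48 h it differed by 0.90 (95% interval -0.03 to 1.83, adjusted p = 0.382). This difference was 1.40 without 24 h replicate 2, which passed the thresholds, and 0.39 without 24 h replicate 1.

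Thbs2, the other thrombospondin measured, is a stromal inhibitor of angiogenesis that clears matrix metalloproteinase 2. Its level was 0.79 and 0.84 in unstimulated cells, 0.76 and 0.65 at 24 h, and 1.61 on 48 h replicate 1. Its single spot on 48 h replicate 2 was flagged as an outlier by the scanner software and was not used, so that the 48 h group rests on 1 array. The 24 h difference was -0.11 (95% interval -0.43 to 0.21). At 48 h it was 0.79 (SE 0.14, limma adjusted p = 0.0381), or 1.73-fold, with the lone array assumed to vary like the other groups. With the flagged spot kept at its value of 2.15, the 48 h difference became 1.06 (adjusted p = 0.0289) and passed 2-fold.

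Tnc, tenascin-C, an adhesion-modulating hexameric glycoprotein that is prominent in tumour stroma, was read by 2 probes from separate parts of its transcript. The first, A_52_P355169, spans an intron, its 60 bases covering 764 bases of chr4:63674248-63675011 (mm9, minus strand), and the second, A_55_P2421597, lies at chr4:63643728-63643787. Their sequences are given as the readings on which the Tnc result rests.
A_52_P355169: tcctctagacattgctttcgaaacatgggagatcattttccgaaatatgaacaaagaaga
A_55_P2421597: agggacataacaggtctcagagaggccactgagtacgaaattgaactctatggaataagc

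The first, brighter probe gave a Tnc level of -0.80 and 0.02 in unstimulated cells, 2.07 and 2.93 at 24 h, and 1.51 and 2.30 at 48 h. All 4 stimulated arrays lay above both unstimulated arrays, and the times overlapped. Tnc rose by 2.89 at 24 h (SE 0.45, limma adjusted p = 0.0177) and by 2.30 at 48 h (SE 0.45, adjusted p = 0.0315), which is 7.43-fold and 4.92-fold higher. The second probe gave -1.56 and -0.80, then 1.40 and 2.30, then 0.75 and 1.65, with increases of 3.03 and 2.38. Both changes passed the study's thresholds without each array in turn, between 2.46 and 3.32 at 24 h and between 1.89 and 2.71 at 48 h.

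Sparc encodes osteonectin, a collagen-binding and counter-adhesive protein. The brighter of its 2 probes gave 8.43 and 8.40 in unstimulated cells, 7.32 and 7.50 at 24 h, and 7.69 and 7.36 at 48 h. Both unstimulated arrays lay above all 4 stimulated arrays, which overlapped between the times. Sparc fell by 1.01 at 24 h (SE 0.15, limma adjusted p = 0.0165), a 2.01-fold change that stood at the fold threshold. It dropped under 2-fold without unstimulated replicate 1 (-0.99), without 24 h replicate 1 (-0.92) and under quantile normalization (-0.93). At 48 h it fell by 0.89 (SE 0.15, adjusted p = 0.0233), or 1.85-fold, which passed the adjusted threshold but not the fold threshold. The second Sparc probe read 4.88 and 4.72 in unstimulated cells, 3.07 and 3.44 at 24 h, and 3.48 and 3.32 at 48 h. On this probe the changes were -1.54 and -1.39, and both passed 2-fold.

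**Figure D2:**
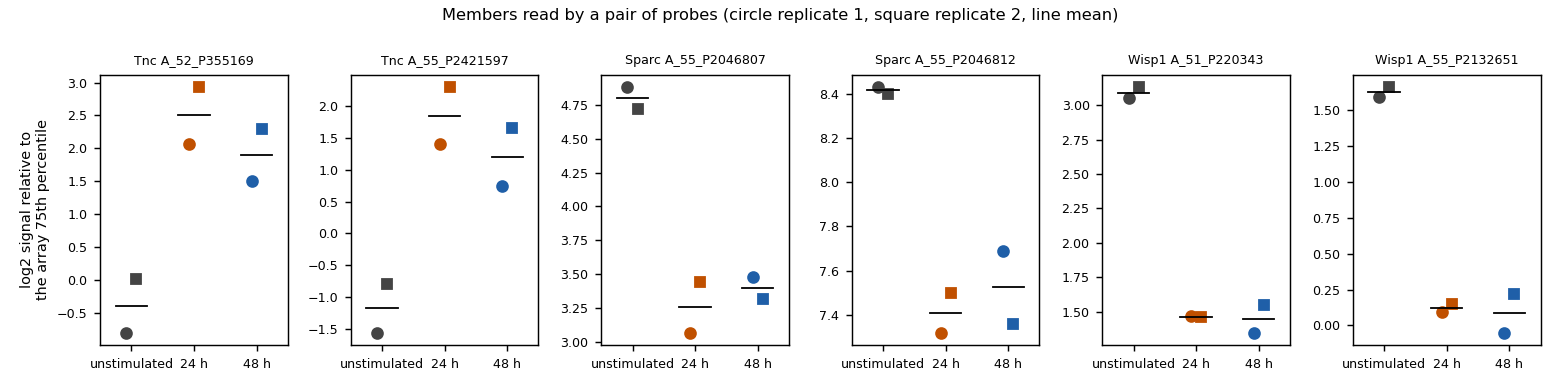
Levels from the 2 probes each of Tnc, Sparc and Wisp1 on the 6 arrays (y axis, log2 signal relative to the 75th percentile of the array, with its own range in each panel) by group (x axis). Circles are replicate 1, squares replicate 2 and lines the group mean. Each pair of probes moves in the same direction at both times, with log2 fold changes at 24 h of 2.89 and 3.03 for Tnc, -1.01 and -1.54 for Sparc, and -1.63 and -1.51 for Wisp1.

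Postn encodes periostin, a TGF-beta-responsive integrin ligand of the cancer stroma, and is read by 1 probe. Its level was 0.62 and 1.28 in unstimulated cells, 0.81 and 2.62 at 24 h, and -3.62 and -1.97 at 48 h. The unstimulated and 24 h arrays overlapped, while both 48 h arrays lay below all 4 others and remained well above background, at signals of 44.96 and 154.2 against 845.3 to 3679 on the others. At 24 h Postn differed by 0.76 from unstimulated cells (95% interval -1.20 to 2.73, limma adjusted p = 0.569), and by -0.14 when 24 h replicate 2 was left out. At 48 h it fell by 3.74 (SE 0.78, adjusted p = 0.0376), 13.4-fold lower than in unstimulated cells. The 48 h change was -2.92 without 48 h replicate 1, -4.57 without 48 h replicate 2, and -2.78 and -2.74 under normexp background correction with the percentile or quantiles. The methods' t-test did not call it (unadjusted p = 0.0521).

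Between 24 and 48 h, Postn was the only one of the 10 genes that passed the study's thresholds, against 0.869% of all genes tested that rose and 1.40% that fell (2.27% together). The arrays of the times did not overlap for Thbs1 and Thbs2, which were higher at 48 h (14.3% of all genes tested), nor for Postn and Cyr61, which were lower (33.7%). Its level at 48 h was 22.8-fold lower than at 24 h (log2 fold change -4.51, SE 0.78, 95% interval -6.47 to -2.54, unadjusted p = 0.00171 by limma). The adjusted p was 0.143, and limma called 0 of the 24737 genes at an adjusted p under 0.05 in this comparison, with 3365 (13.6%) at an unadjusted p under 0.05. The difference passed the study's thresholds without each array in turn, between -5.42 and -3.60. It was -3.47 under both normexp settings, with limma adjusted p of 0.0238 and 0.0307, and the methods' t-test did not call it (unadjusted p = 0.0668, adjusted p = 0.491). The other 9 genes differed between the times by -0.79 (Cyr61) to 1.66 (Tgfbi), and the median of all 10 was 0.05, beside -0.08 over all genes tested.

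**Figure D3:**
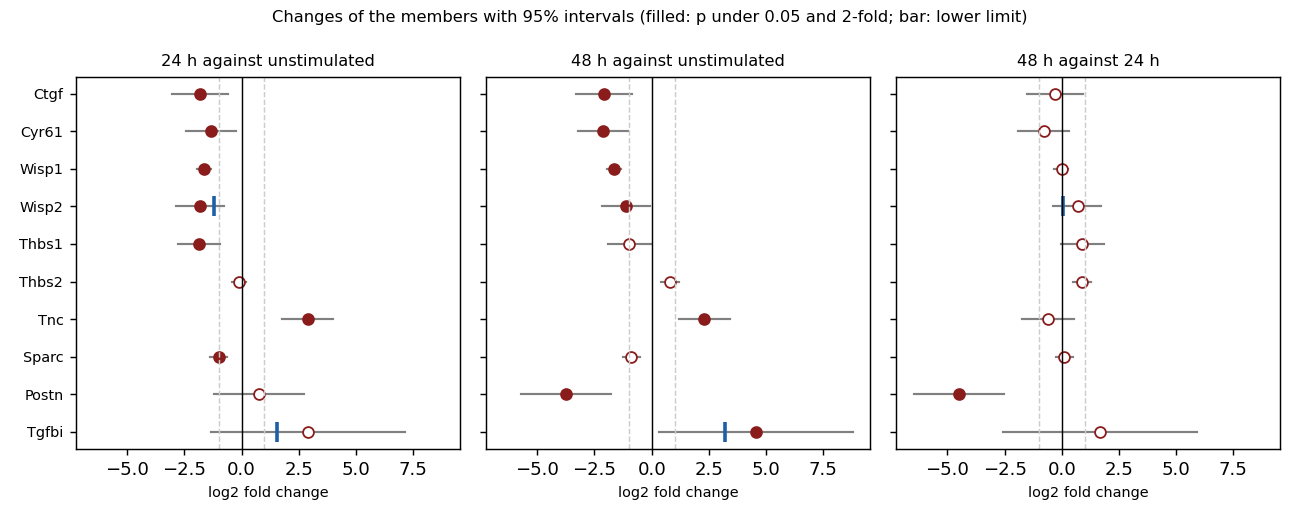
Log2 fold change of each gene (x axis) in the 3 comparisons, with bars for the 95% interval of the limma fit over 6 arrays. Filled points passed p under 0.05 and 2-fold, dashed lines mark 2-fold, and blue ticks give the lower limit where the dimmer group was not above background. The intervals of Tnc and Wisp1 lie clear of 2-fold at both times against unstimulated cells, Postn stands at -3.74 and -4.51 in the comparisons with 48 h, and the interval of Tgfbi at 48 h runs from 0.32 to 8.80.

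Tgfbi, whose product binds collagens and integrins and is named for its induction by TGF-beta, had the largest standard error of the 10 genes, 1.70 on the log2 scale. Its level was -5.77 and -6.83 in unstimulated cells, not well above background on either array, -2.76 and -4.04 at 24 h, and 0.90 and -4.37 at 48 h. All 4 stimulated arrays were above both unstimulated arrays, and 48 h replicate 1, at a signal of 1028 against 29.10 on replicate 2, stood apart from all others. Because of the dim unstimulated arrays, its folds against unstimulated cells are lower limits. In the main setting, Tgfbi was at least 2.93-fold higher at 24 h (unadjusted p = 0.142 and adjusted p = 0.315 by limma). At 48 h it was at least 9.29-fold higher (unadjusted p = 0.0395, adjusted p = 0.141). Neither limit holds under normexp background correction. The 48 h limit rests on replicate 1: it was 1.5-fold without 48 h replicate 1 and 57.7-fold without 48 h replicate 2. The 24 h limit was 1.88-fold without 24 h replicate 1 and 4.58-fold without 24 h replicate 2.

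The fitted differences of Tgfbi from unstimulated cells take in values below background and serve only to compare settings. The p-values given with the lower limits belong to these fitted differences. Without the filter on dim genes, the 48 h call was lost (limma unadjusted p = 0.058). The fitted difference at 48 h, 4.56 with both replicates, was 1.92 without 48 h replicate 1 and 7.19 without 48 h replicate 2. The difference between 48 and 24 h changed from 1.66 to -0.97 and 4.30. The 48 h call was lost without unstimulated replicate 1 (5.09), unstimulated replicate 2 (4.03) and either 24 h array (4.56 in both fits), under normexp background correction (2.0), and with dim spots raised to the lowest signal well above background (3.22, unadjusted p = 0.0976). Without either 48 h array, the 24 h difference of 2.90 passed the thresholds (limma adjusted p = 0.0476). Among the 10 genes Tgfbi had the widest range of group means, 4.56, which rests on the unstimulated values below background. At its lower limit of 3.22 the range is under that of Postn, 4.51, which was measured on every array. The 3 other genes with profiles most like it over the 6 arrays were ENSMUST00000094228, Dppa3 and ENSMUST00000157042, at root mean square distances of 0.70, 0.85 and 0.85 between profiles centred on their means. Because these genes were picked for a profile like that of Tgfbi, their sharing its single high array is not a separate result. On 48 h replicates 1 and 2 the levels were 0.32 and -4.27 for ENSMUST00000094228, -0.95 and -5.10 for Dppa3, and -1.26 and -4.63 for ENSMUST00000157042. None of the 3 was well above background in unstimulated cells. For Postn, added after the values were seen, the 3 most alike were Col12a1, Cbr2 and Lbp, at distances of 1.04, 1.12 and 1.19.

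Replicate 2 lay above replicate 1 in all 3 groups for 4 of the 9 genes with a value on every array, Postn, Thbs1, Tnc and Ctgf, and for 14.7% of all genes tested.

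Related genes were counted from 7 lists of matrix, receptor and pathway genes, which, like the 10 genes, were written with earlier results of these data known. Their counts stand beside 5.84% of all genes tested that rose and 1.82% that fell at 24 h, and 4.64% and 1.82% at 48 h, and their medians beside 0.04 and -0.04. Of 16 other matricellular genes and relatives, 12 were tested, and 4 rose and 0 fell at both 24 and 48 h, with medians of 0.33 and 0.30. Spp1, which encodes the cytokine-like integrin ligand osteopontin, rose by 3.43 and 2.97 (limma adjusted p = 0.00427 and 0.00555). Sparcl1, the hevin gene and nearest relative of Sparc, rose by 1.45 and 2.19 (adjusted p = 0.0165 and 0.00578), while Sparc fell. The other two were singled out after their values were seen: Nov, which encodes CCN3, rose by 1.53 and 1.74, and Tnn, a further tenascin gene, was at least 3.93-fold and 1.97-fold higher, not being well above background in unstimulated cells. The CCN genes measured thus did not all move one way, with 4 lower and Nov higher at both times.

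Of 15 tested receptors and binding partners of these proteins, 5 rose and 1 fell at 24 h, and 3 rose and 0 fell at 48 h, with medians of 0.11 and 0.14. Itgb3, the integrin beta 3 subunit that pairs with alpha v to bind periostin, osteopontin and CCN proteins, was at least 17.0-fold higher at 24 h and at least 7.79-fold higher at 48 h (limma adjusted p = 0.00672 and 0.0140). Itga6, a laminin-binding alpha subunit that also binds CCN proteins, rose by 1.35 and 1.25 (adjusted p = 0.00640 and 0.00752). The other receptor genes called were named after their values were seen. The integrin genes Itga5 (1.02) and Itgb8 (1.09) and the syndecan gene Sdc4 (1.18) rose at 24 h, Cd47, a thrombospondin-1 receptor, rose at 48 h (1.35), and Itgb5, the integrin beta 5 subunit, fell at 24 h (-1.20).

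Of 21 tested genes for TGF-beta ligands, receptors and Smads, 2 rose and 1 fell at each time, with medians of 0.00 and 0.04. Tgfb1 and Tgfb2, which encode different TGF-beta isoforms, moved in opposite directions: Tgfb1 rose by 1.53 and 1.73 (limma adjusted p = 0.00474 and 0.00317), and Tgfb2 fell (-1.76 and -1.84, adjusted p = 0.00429 and 0.00340). The further increase was in Tgif1, a Smad co-repressor, named after its values were seen, at 1.47 and 1.30. Of 18 genes known as TGF-beta targets, 2 rose and 5 fell at each time, with medians of 0.09 and -0.13. Acta2, smooth muscle actin, fell (-2.26 and -3.48, adjusted p = 0.0349 and 0.0121), and Junb, an AP-1 subunit, rose by 2.32 and 1.67 (adjusted p = 0.00414 and 0.00870). Named after their values were seen, the collagen-modifying enzyme gene Plod2 rose by 1.29 and 1.28, Lox, a collagen cross-linking enzyme, fell (-1.40 and -1.34), and so did the contractile gene Tagln (-1.0 and -1.69). The collagen genes, also seen first, made up the remaining decreases: Col1a2 at -1.44 and -1.23, Col3a1 at 24 h (-1.35) and Col1a1 at 48 h (-1.19). The fibroblast marker list shares 3 genes with this list, Col1a1, Col1a2 and Col3a1.

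Of 16 tested genes of the Hippo pathway with YAP, TAZ and TEAD, 0 rose and 1 fell at each time, with medians of 0.02 and -0.04. The gene that fell was Amotl2, which encodes an angiomotin that holds YAP in the cytoplasm and is itself a YAP target, at -1.26 and -1.38 (limma adjusted p = 0.0141 and 0.0116). Of 18 tested YAP and TAZ targets other than Ctgf and Cyr61, 1 rose and 6 fell at 24 h, and 2 rose and 6 fell at 48 h, with medians of -0.35 and -0.32. Among them Tgfb2 is given above, and Ankrd1, a cardiac ankyrin repeat protein widely used as a YAP reporter, fell (-1.51 and -1.62, adjusted p = 0.0318 and 0.0268). The genes that rose, named after their values were seen, were F3, the tissue factor gene (1.33 and 1.53), and at 48 h Gadd45a, a growth arrest gene (1.02). Of 5 tested Wnt targets, 0 rose at either time, and only Apcdd1, named after its value was seen, fell at 24 h (-1.20). At 48 h 0 of the 5 passed the thresholds.

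**Figure D4:**
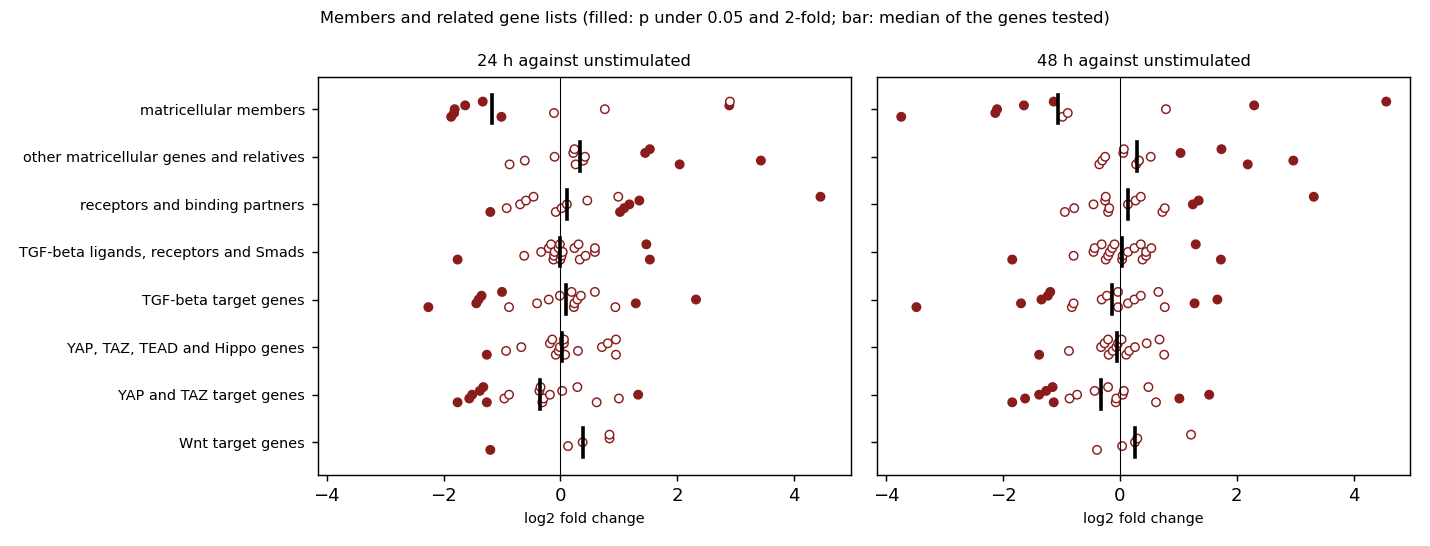
Log2 fold change (x axis) of each tested gene of the 10 matricellular genes and of 7 related lists (rows) at 24 and 48 h against unstimulated cells. Each point is a gene, filled where p was under 0.05 and the change at least 2-fold, and black bars are medians. The bar of the 10 matricellular genes is at -1.17 and -1.06, that of YAP and TAZ targets at -0.35 and -0.32, and those of the other lists lie between -0.13 and 0.38.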

How the data were processed

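RNA of N18-Fms cells from 2 independent experiments was labelled with Cy3, hybridised to SurePrint G3 mouse arrays (build mm9 in the file headers) and scanned for the authors by a service company. The deposited files hold the spot intensity after background subtraction and detrending by Feature Extraction 11.0.1.1, without scaling between arrays, and this processing leaves dim spots near a floor. The authors' table of log2 values, set against these intensities and used as an alternative, gave 99.79% of the differences between arrays within 0.05 of them over 44569 probes, after a constant per array. Here log2 of the processed signal was scaled to the 75th percentile of each array, flagged outlier spots were set to missing, repeated spots were averaged, and each gene was read from its brightest probe. A gene entered the test if some group had it well above background on its 2 arrays. The test used limma 3.58.1 (R 4.3.3), lmFit and eBayes, 2-sided, over all 6 arrays with 3 residual degrees of freedom, and p-values were adjusted over 24737 genes. Genes were called at p under 0.05 and 2-fold, the study's thresholds. The script was tested on simulated data. Groups of 2 arrays limit the precision, and an exact 2-sided test of 2 against 2 cannot go below 0.333.

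All 10 members were named, with the 2 genes of each related list that changed most in 1 direction at both times and the 3 genes most like the member with the widest range of group means. The members and lists were chosen with earlier results of these data known. Over all genes tested, samples with the same replicate number deviated together with r of 0.127, 0.095 and 0.200 between groups, and the main fit did not pair them. These values do not exclude pairing for single genes. With the replicate number as a block, the SE at 24 h was 0.32 for Postn (0.78 in the main fit) and 0.20 for Thbs1 (0.37). It stayed at 0.44 for Cyr61 and 0.15 for Sparc. Alternatives were other scalings, background corrections, filters, probe rules, samples in the fit, the replicate block, the methods' t-test, leaving out each array and, added after the values were seen, keeping flagged spots and raising dim spots to a floor. One of the marker genes is not reported here.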

Additional observations from a re-analysis of the deposited data

Results flagged for a closer look

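The level of Postn differed between 24 and 48 h of CSF-1 at the study's thresholds but not after adjustment. Against the same unstimulated arrays its log2 fold change was 0.76 at 24 h and -3.74 at 48 h, and the test of the difference itself, 48 h against 24 h, gave -4.51 (limma unadjusted p = 0.00171, adjusted p = 0.143). Both 48 h arrays lay below both 24 h arrays. The cause was not tested. With the same unstimulated arrays for both times, time in culture and duration of CSF-1 cannot be told apart.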

How the results depend on the processing

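For the changes that passed the thresholds, 185 recalculations over the alternatives other than leaving out an array kept the direction and the call and 22 lost the call, 8 of them under the methods' t-test. With an array left out, 77 kept both and 13 lost the call, and none of the changes that passed was reversed. The methods' t-test called 4 of the 10 genes at 24 h, and of the 9 with a value 3 at 48 h and 0 between the times. Over all genes it called 992 up and 360 down of 24684 at 24 h, 824 and 337 of 24631 at 48 h, and 104 and 146 of 24610 between the times. After Benjamini-Hochberg adjustment 0 genes passed, among the members and over all genes.

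Reversals were seen only in changes that had not passed. Wisp1 between 24 and 48 h was 0.17 under median centring, 0.02 and 0.01 under normexp with the percentile or quantiles, and -0.12 to 0.09 with single arrays left out, positive without 48 h replicate 1. With single arrays left out, Sparc ran from -0.05 to 0.28 and Tgfbi from -0.97 to 4.30 between the times, both lowest without 48 h replicate 1, and Ctgf from -1.01 to 0.44, highest without 24 h replicate 2. Postn at 24 h ran from -0.14 to 1.67, lowest without 24 h replicate 2.

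The median of the 10 genes at 24 h was -1.45 under median centring and -0.81 and -0.84 under the normexp settings. At 48 h it was -0.84 under normexp with quantiles and -1.64 with the filter on all 6 arrays, which leaves out Thbs2, Wisp2 and Tgfbi, and between the times it was -0.28 under that filter. With single arrays left out it ran from -1.29 to -0.80 at 24 h, from -1.39 to -0.91 at 48 h and from -0.05 to 0.28 between the times. Between the times 2 genes were called with quantile normalization, the authors' log2 values or flagged spots kept (chosen after seeing the data), 3 under median centring and 1 to 3 with single arrays left out. Thbs2 has no value at 48 h without 48 h replicate 1 or under the t-test.

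Median centring moved the median of all genes tested to -0.247 at 24 h and -0.143 at 48 h, from 0.037 and -0.044. It called 923 genes up and 1020 down at 24 h (main setting 1445 and 450), 1022 and 647 at 48 h (1148 and 451), and 386 and 190 between the times (215 and 346). Under it Tnc remained higher, and Thbs1, Ctgf, Cyr61, Wisp1, Wisp2 and Sparc lower, at both times. Quantile normalization called 951 up and 600 down at 24 h and 339 and 135 between the times. Normexp with the percentile called 586 and 289, 657 and 232, and 139 and 26 in the same order of comparisons, and with quantiles 578 and 263, 688 and 194, and 153 and 25. Without the filter 2804 and 469 genes were called at 24 h and 234 and 1121 between the times, and on all 6 arrays 728 and 373, and 133 and 54. The t-test called 104 and 146 between the times. With dim spots raised to the lowest signal well above background of their array (chosen after seeing the data), 203 and 162 were called between the times, and Wisp2 (-0.85) and Tgfbi (3.22) lost their 48 h calls. Adjusted calls over all genes were 3425 at 24 h and 3430 at 48 h, 1314 and 866 without the filter, 2105 at 48 h from the 2 groups alone, 5422 at 48 h with an intensity trend, 0 and 0 by the t-test, and 877 to 2533 and 879 to 2105 with an array left out. Between the times 0 were called, but 5 under median centring, 204 and 282 under normexp, 5 on all 6 arrays, 178 with the trend and 11 without 48 h replicate 2, and of the 10 genes 1 and 2 were among those under the normexp settings and 2 among those with the trend.

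With the replicate number as a block, 7 of the 10 genes were called at 24 h, 6 at 48 h and 1 between the times. Over all genes tested, 1423 were called up and 453 down at 24 h, 1167 and 447 at 48 h, and 234 and 337 between the times. Wisp2 at 48 h was lost (-1.13, limma unadjusted p = 0.0593). The adjusted threshold was passed by 3762, 3914 and 0 genes of all tested, with 5, 6 and 0 of the 10 among them. Same-numbered arrays deviated together with r of 0.127, 0.095 and 0.200. Spots near background limit what can be said of Wisp2 and Tgfbi.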
